A study of Mus musculus with 48 samples.

Results

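Hox cluster genes were taken as the probe sets of the mouse MG-U74Av2 array that name a single gene whose symbol is Hoxa, Hoxb, Hoxc or Hoxd followed by a number. The rule found 38 probe sets for 31 genes, of 10855 probe sets and 8252 genes that could be tested and of 39 Hox genes in the RefSeq table of the mouse genome. On build GRCm38.p6 these were 10 of 11 HoxA genes (chr6:52162417-52260880), 9 of 10 HoxB genes (chr11:96194316-96368254), 5 of 9 HoxC genes (chr15:102977032-103036856) and 7 of 9 HoxD genes (chr2:74668225-74765142). Of the 31, 19 carry the paralog numbers 1 to 8, called anterior below, and 12 carry 9 to 13, called posterior. Another 5 probe sets lay outside the rule: 2 name both Hoxd4 and Hoxd3, 1 names both Hoxb8 and Hoxb7, and 2 name Hoxa11os, the antisense transcript of the Hoxa11 locus. Hox genes are alike in the homeobox, and the probe sets of Hoxd9 and Hoxd10 cite the same sequence record, so their values are uncertain as measures of 1 gene each. Of the 31 genes, 26 had 1 probe set, 4 had 2 and Hoxa4 had 4, averaged per gene.

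RNA abundance was measured with this short oligonucleotide expression array in mouse forelimb buds after the dams received 1 of 2 teratogens. Dams at gestation day 9.5 were injected intraperitoneally with cadmium sulfate at 4 mg/kg, acetazolamide (an inhibitor of carbonic anhydrases) at 400 mg/kg, phosphate-buffered saline (PBS, the vehicle of cadmium) or vegetable oil (the vehicle of acetazolamide). Right forelimb buds were collected 3 h or 12 h later and parted with trypsin into ectoderm and mesoderm. With 2 agents, each beside its vehicle, in 2 tissues at 2 times, there were 16 groups of 3 arrays and 48 arrays. The treatment protocol has tissue of several litters pooled for RNA, while the sample descriptions call the RNA extracts non-pooled. What 1 array stands for, and so what the spread of 3 arrays measures, is not settled by the labels. The labels do not say that the 3 arrays of a group came from separate pools, and p-values measure only the spread between these arrays, which may be technical.

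Hox genes encode homeodomain transcription factors that lie in 4 clusters, in an order that matches where and when they are active along the body. In the limb bud, genes of the HoxA and HoxD clusters with high numbers are known to pattern the mesoderm from shoulder to digits and to act on Sonic hedgehog, while genes with low numbers are active in the flank and the base of the limb. Hox transcription is known to respond to retinoic acid and to be held in on and off states by the Trithorax and Polycomb groups, and Hox proteins bind DNA with Pbx and Meis cofactors.

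The deposited values are ratios of each array to vehicle arrays of its own tissue and time, on a linear scale, and were converted to log2. No level is held, so Hox levels cannot be set against each other or between tissues, and how far a probe set stood above background is not known. Nor could ectoderm or mesoderm be checked against the level of their markers. In all 8 comparisons vehicle arrays 1 and 2 summed to 2 and vehicle array 3 equalled 1, to within 3e-07. Vehicle array 3 is therefore 0 on the log2 scale for every gene and carries no spread of its own. From the array numbers it was inferred, and is not stated, that treated arrays were divided in the same way. Arrays 1 and 2 would share 1 denominator and array 3 have the other, and agent effects were fitted within these denominators. Statements below on overlap, or on the range of vehicle arrays, set all 3 treated arrays against all 3 vehicle arrays. They thus mix the 2 denominators, unlike the fitted effects. Each agent effect is a treated mean minus its vehicle mean on the log2 scale, with its standard error (SE) and n = 3 arrays a group. These are bulk tissues, in which fewer cells of a type and less RNA per cell cannot be told apart.

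None of the 31 Hox genes passed the test in any of the 8 agent comparisons. The test was limma with Benjamini-Hochberg adjustment over all 8252 genes and a threshold of 0.05, and the smallest adjusted p of a Hox gene was 0.132. Of all genes, 2.28% were called in cadmium mesoderm at 12 h, 0.0364% in acetazolamide mesoderm at 3 h, 0.0242% in cadmium ectoderm at 12 h, 0.0242% in acetazolamide ectoderm at 3 h, and 0% in the other 4 comparisons. No Hox gene passed among 14 further contrasts either. There the share of all genes called was 0.460% for cadmium mesoderm at 12 h minus 3 h, 0.0121% in 4 contrasts and 0% in 9. The calls depended on single vehicle arrays in 2 comparisons, described below for Hoxd9 and Hoxc6.

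Of the 248 Hox effects (31 genes in 8 comparisons), 9 were beyond 0.5 in size on the log2 scale (3.63%), against 2.95% over all genes, and 0 were beyond 1, against 0.15%. The median reach of the 95% interval to either side of a Hox effect was 0.23 in cadmium mesoderm at 12 h, the most precise comparison. It was 0.45 in cadmium ectoderm at 12 h, the least precise, where the widest single interval, of Hoxa9, reached 1.37. The arrays of Hoxa9 there ran only from -0.08 to 0.04, so that width reflects its spread in other comparisons. At an unadjusted p under 0.05, which makes no allowance for the number of genes tested, 18 of the 248 effects passed (7.26%), against 5.95% over all genes and comparisons. These 18 came from 14 genes, 7 of them higher and 11 lower in treated limb buds, and 13 of the 18 lay in mesoderm at 3 h.

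**Figure D1:**
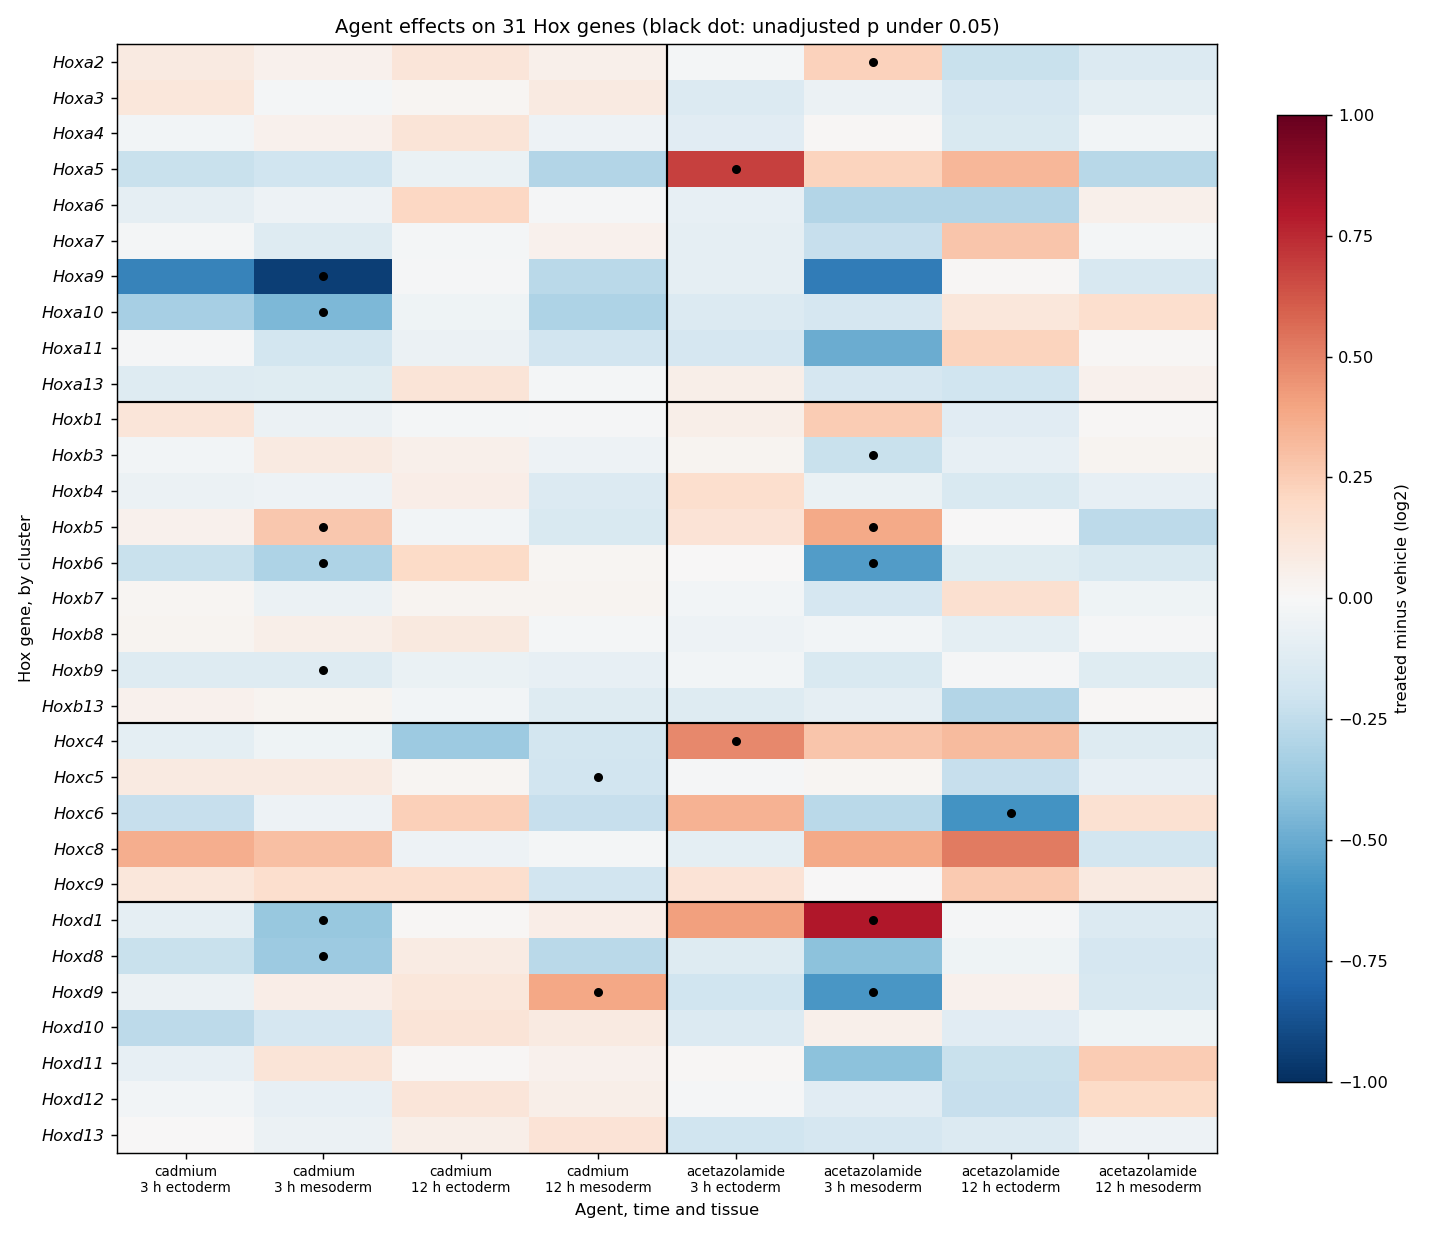
Heat map of the agent effect (treated minus vehicle, log2 scale, colour) for 31 Hox genes in rows, ordered by cluster and number, and the 8 comparisons in columns. Black dots mark the 18 effects with an unadjusted p under 0.05, of which 7 lie in cadmium mesoderm at 3 h and 6 in acetazolamide mesoderm at 3 h.

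By comparison, the Hox genes at an unadjusted p under 0.05 were as follows. Cadmium at 3 h gave 0 in ectoderm, where 3.32% of all genes passed, and 7 in mesoderm, where 3.09% did. Cadmium at 12 h gave 0 in ectoderm (all genes 4.45%) and 2 in mesoderm (all genes 13.8%). Acetazolamide at 3 h gave 2 in ectoderm (all genes 6.86%) and 6 in mesoderm (all genes 7.36%). Acetazolamide at 12 h gave 1 in ectoderm (all genes 7.86%) and 0 in mesoderm (all genes 0.788%). Several of these counts rested on single arrays. After acetazolamide at 3 h the count ran from 2 to 4 in ectoderm and from 4 to 9 in mesoderm when 1 array was left out. In cadmium mesoderm at 3 h the count was 2 when cadmium array 1 was left out and 1 when cadmium array 2 was. It was 10 when PBS array 2 was left out. In cadmium mesoderm at 12 h it was 1 without cadmium array 2 and 7 without the pair of arrays numbered 3. It was 6 in cadmium ectoderm at 3 h without PBS array 2, and in acetazolamide ectoderm at 12 h it was 7 without oil array 2 and 0 without acetazolamide array 1.

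Sequences just upstream of the start are shown for 4 members, the pair of neighbouring posterior HoxA genes with the smallest p in cadmium mesoderm at 3 h (Hoxa9, Hoxa10) and the pair with the smallest p in acetazolamide ectoderm at 3 h (Hoxa5, Hoxc4). RefSeq windows of 250 bases before the start existed for 20 of the 31 genes (22 windows, build GRCm38.p6). The Hoxc4 window shown lies within the RefSeq span of the gene (chr15:103018097-103036856), so a start further upstream has no window here. They were searched on both strands for the core of the metal response element (TGCACNC or TGCGCNC), bound by the metal-sensing factor Mtf1, and for retinoic acid receptor half-sites (AGGTCA or AGTTCA). Capitals mark matches as they read on the printed strand, and sequences run 5′ to 3′ in the direction of transcription.
Hoxa9, chr6:52227371-52227620, minus strand: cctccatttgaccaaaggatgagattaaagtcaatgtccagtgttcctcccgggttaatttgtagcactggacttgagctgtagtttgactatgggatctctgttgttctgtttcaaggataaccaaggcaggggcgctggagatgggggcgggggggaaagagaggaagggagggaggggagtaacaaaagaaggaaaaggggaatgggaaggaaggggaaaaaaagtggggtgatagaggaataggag
Hoxa10, chr6:52234940-52235189, minus strand, 1 of 2 starts: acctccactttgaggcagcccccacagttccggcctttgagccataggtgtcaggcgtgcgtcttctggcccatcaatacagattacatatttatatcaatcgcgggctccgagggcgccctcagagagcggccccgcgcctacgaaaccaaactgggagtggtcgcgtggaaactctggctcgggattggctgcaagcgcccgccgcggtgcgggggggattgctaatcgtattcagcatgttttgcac
Hoxa5, chr6:52204588-52204837, minus strand: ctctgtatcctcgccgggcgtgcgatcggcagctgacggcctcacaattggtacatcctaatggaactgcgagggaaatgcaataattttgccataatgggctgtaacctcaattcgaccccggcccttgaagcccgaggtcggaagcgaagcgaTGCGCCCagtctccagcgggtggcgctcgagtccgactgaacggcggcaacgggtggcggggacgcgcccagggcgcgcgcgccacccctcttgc
Hoxc4, chr15:103034145-103034394, plus strand: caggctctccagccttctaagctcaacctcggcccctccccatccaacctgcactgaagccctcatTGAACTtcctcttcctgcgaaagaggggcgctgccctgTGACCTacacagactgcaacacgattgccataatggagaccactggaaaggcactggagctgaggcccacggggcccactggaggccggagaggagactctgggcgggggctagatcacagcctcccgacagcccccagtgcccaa
The Hoxa5 window holds 1 metal response core, the Hoxc4 window holds 2 retinoic acid half-sites (TGAACT and TGACCT, which are AGTTCA and AGGTCA on the other strand), and the windows of Hoxa9 and Hoxa10 hold neither. Over the Hox genes with a window, 3 of 20 (Hoxa5, Hoxb4, Hoxd11) had a metal response core and 5 of 20 (Hoxb4, Hoxc4, Hoxd8, Hoxd10, Hoxd13) a half-site. Among 32851 mouse windows of the same length these motifs occurred in 21.4% and 24.2%. A match is only a match of letters, and its absence says nothing on more distant elements, where known retinoic acid elements of Hox clusters also lie.

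Cadmium at 3 h was set against PBS first. In mesoderm the lowest effects were those of 2 neighbouring posterior HoxA genes, Hoxa9 and Hoxa10. Hoxa10, which helps pattern the upper limb, had log2 ratios of -0.48, -0.56 and -0.37 in cadmium arrays, against 0.26, -0.31 and 0 in PBS arrays. All 3 cadmium arrays lay below all 3 PBS arrays, and the effect was -0.45 ± 0.16 (SE; limma unadjusted p = 0.00894, adjusted p = 1). It was -0.28 without PBS array 1. Arrays of 9.63% of all genes did not overlap in this comparison, and 4 of 31 Hox genes (Hoxa10, Hoxb3, Hoxb5, Hoxb9) were among them.

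Its neighbour Hoxa9, which with the other number 9 genes is needed for the onset of Sonic hedgehog in the forelimb, had -1.31, -1.51 and -0.54 in cadmium mesoderm at 3 h, against 0.64, -1.18 and 0 in PBS mesoderm. PBS array 2 was nearly as low as cadmium arrays 1 and 2, so the groups overlapped. The effect was -0.94 ± 0.36 (adjusted p = 1), the lowest of any Hox gene in any comparison, and it was -0.37 without PBS array 1 and -1.41 without PBS array 2. In ectoderm at 3 h the same gene had -1.47, -1.41 and -0.01 in cadmium arrays, against 0.74, -1.61 and 0 in PBS arrays. That effect of -0.67 ± 0.43 (adjusted p = 0.999) was 0.10 without PBS array 1, so its direction rested on that array. Hoxa10 in ectoderm was -0.33 ± 0.19 (adjusted p = 0.999), with -0.71, -0.55 and 0.20 in cadmium arrays, against 0.29, -0.36 and 0 in PBS arrays. Cadmium array 3 was above 2 of the 3 PBS arrays, and the effect was -0.07 without PBS array 1. Hoxb9 had the smallest p in ectoderm, at -0.13 ± 0.07, and was the 1 Hox gene of 31 whose arrays did not overlap there, against 9.39% of all genes.

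All 4 posterior HoxA genes were below 0 in cadmium limb buds at 3 h in both tissues, with medians of -0.31 in mesoderm and -0.23 in ectoderm. In ectoderm Hoxa11 was barely so, at -0.01 ± 0.23. Cadmium array 3 of ectoderm was above 0 for Hoxa10 (0.20), Hoxa11 (0.64) and Hoxa13 (0.03) and at -0.01 for Hoxa9. The medians of all genes were 0 and -0.01. These 4 genes are neighbours in 1 cluster and are not replicates of each other.

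Other members in cadmium mesoderm at 3 h were closer to 0. Hoxd1, a gene at the anterior end of its cluster, had -0.68, -0.59 and 0.11 in cadmium arrays, against 0.03, -0.03 and 0 in PBS arrays, an effect of -0.38 ± 0.16 (adjusted p = 1). Arrays 1 and 2 were low and array 3 was above its PBS array. Hoxd8, the neighbour of Hoxd9, was at -0.36 ± 0.16 (adjusted p = 1). Its 2 probe sets gave -0.11 and -0.62, the widest gap between probe sets of 1 Hox gene in any comparison (0.51). Hoxb6 was at -0.31 ± 0.14 and Hoxb9 at -0.13 ± 0.06. Hoxb5, a gene of the shoulder level known for its part in placing the forelimb, was the 1 member of the 7 above 0. It had 0.35, 0.27 and 0.19 in cadmium arrays, against -0.04, 0.04 and 0 in PBS arrays, an effect of 0.27 ± 0.12 (adjusted p = 1) with no overlap. The highest effects after cadmium at 3 h were those of Hoxc8, a gene of the trunk behind the forelimb, at 0.30 ± 0.21 in mesoderm and 0.36 ± 0.25 in ectoderm, each inside its spread.

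In cadmium mesoderm at 3 h, 16 of 18 measured markers of surface ectoderm were above 0 with a median effect of 0.21, 3 had an unadjusted p under 0.05 and 0 were called. The median marker ran from 0.07 to 0.20 over cadmium arrays, against -0.01 to 0.01 over PBS arrays. Of 13 limb mesoderm markers, 5 were above 0 (median -0.05). Their part in the Hox values was not tested.

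Cadmium at 12 h left no Hox gene past the test in mesoderm, where 188 genes over the array passed. Hoxd9, which acts with Hoxa9 in the upper limb, had the smallest p of any Hox gene in this comparison. Its log2 ratios were 0.39, 0.60 and 0.19 in cadmium arrays, against 0.00, 0.00 and 0 in PBS arrays, so all cadmium arrays were higher. The effect was 0.39 ± 0.13, a 1.31-fold ratio (95% interval 0.12 to 0.67 in log2, limma adjusted p = 0.132), and leaving out 1 array at a time gave 0.31 to 0.49. Among single probe sets, 1 of Hoxd8 had a smaller p and the opposite sign. It was at -0.35 ± 0.11 (limma adjusted p = 0.114, against 0.152 for the Hoxd9 probe set), and the other Hoxd8 probe set was at -0.19 ± 0.29. Arrays of 19.3% of all genes did not overlap here, and 4 of 31 Hox genes were among them (Hoxd9 higher, Hoxb9, Hoxc4 and Hoxc6 lower).

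The median effects of the HoxC and HoxD clusters lay on opposite sides of 0 in cadmium mesoderm at 12 h. All 5 HoxC genes were below 0 (median -0.19), led by Hoxc5 at -0.19 ± 0.09 (adjusted p = 0.308), with Hoxc8 at only -0.02. Of HoxD genes, 6 of 7 were above 0 (median 0.07), and Hoxd8 was at -0.27. The HoxD side did not hold in cadmium array 3. There Hoxd8 (-0.58), Hoxd10 (-0.40), Hoxd11 (-0.27) and Hoxd13 (-0.07) were below 0 and Hoxd12 was 0.00. Hoxd1 (0.28) and Hoxd9 (0.19) were above 0 in that array. Genes of 1 cluster are not replicates of each other. Hoxc5, a gene of the neck and shoulder level, had -0.32, -0.23 and -0.03 in cadmium arrays, against 0.09, -0.09 and 0 in PBS arrays. Cadmium array 3 lay within the PBS range. The lowest effect was that of Hoxa10, at -0.31 ± 0.15 (adjusted p = 0.384), with -0.37, -0.45 and -0.12 in cadmium arrays, against 0.16, -0.18 and 0 in PBS arrays. The 4 posterior HoxA genes were again all below 0 (median -0.23), though Hoxa13 by only -0.02 ± 0.11. Without PBS array 1, Hoxa10 was -0.18 and Hoxc5 -0.12. Over all genes 54.4% were above 0, against 11 of 31 Hox genes (35.5%). Endothelial markers moved in this comparison: Tie1 and Eng were called higher, 9 of 11 measured were above 0, and the median marker ran from 0.08 to 0.39 over cadmium arrays, against -0.07 to 0.06 over PBS arrays. The red cell gene Alas2, of heme synthesis, was called higher as well. Of neural tube and somite markers 0 were called in any of the 8 comparisons. The part of these markers in the Hox values was not tested.

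In ectoderm at 12 h after cadmium the arrays spread most, and Hox effects ran from -0.36 to 0.24. Hoxc4 was lowest, with -0.30, 0.07 and -0.87 in cadmium arrays, against -0.17, 0.16 and 0 in PBS arrays (-0.36 ± 0.20, adjusted p = 0.983). Without PBS array 3, and with it the cadmium array set against it, the effect was -0.10. Hoxc6 was highest, at 0.24 ± 0.27, with -0.19, 0.60 and 0.20 in cadmium arrays and 0.36, -0.47 and 0 in PBS arrays. Hoxa4 (0.13 ± 0.13) and Hoxa6 (0.21 ± 0.23) followed Hoxc4 by p, and both were 0.04 without PBS array 2. All 7 HoxD genes were above 0, but by only 0.01 to 0.13, and 57.6% of all genes were above 0. Of 11 endothelial markers 11 were above 0 (median 0.18, array medians 0.02 to 0.21 in cadmium and -0.08 to 0.07 in PBS), as were 10 of 11 red cell, 9 of 10 neural tube and 9 of 13 limb mesoderm markers. None of them was called, and their part in the Hox values was not tested. Hox arrays that did not overlap numbered 0 of 31 here, against 10.0% of all genes.

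Acetazolamide at 3 h was set against oil. In ectoderm 2 anterior genes had the highest values. Hoxa5, a gene of the neck and shoulder level, had 0.23, 0.78 and 1.04 in acetazolamide arrays, against 0.09, -0.09 and 0 in oil arrays. Hoxc4, its neighbour in paralog number, had 0.57, 0.29 and 0.58 in acetazolamide arrays, against -0.09, 0.09 and 0 in oil arrays. In both genes all acetazolamide arrays were above all oil arrays. The effects were 0.68 ± 0.20 for Hoxa5 (a 1.60-fold ratio, adjusted p = 0.458) and 0.48 ± 0.14 for Hoxc4 (1.40-fold, adjusted p = 0.378). Hoxd1 followed by p, with 0.67, 0.21 and 0.33 in acetazolamide arrays, against -0.05, 0.05 and 0 in oil arrays (0.41 ± 0.21, adjusted p = 0.731). The arrays of 6 of 31 Hox genes did not overlap (19.4%), against 13.9% of all genes. The posterior median was -0.11 (3 of 12 above 0) and the anterior median -0.01 (9 of 19 above 0), beside a median of -0.04 over all genes (38.9% above 0). Hoxd9 and Hoxd13 were lowest at -0.20 each. Of 11 endothelial markers 0 were above 0 (median -0.11, array medians -0.22 to 0.04 in acetazolamide and -0.07 to 0.06 in oil), and of 11 red cell markers 0 were (median -0.13). None of these was called, and their part in the Hox values was not tested.

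In mesoderm at 3 h after acetazolamide the Hox genes spread more widely than in any other comparison, with effects running from -0.70 to 0.80. Hoxd1 was highest, with 0.99, 1.02 and 0.20 in acetazolamide arrays, against -0.60, 0.42 and 0 in oil arrays. Acetazolamide array 3 lay inside the oil range, and the oil arrays differed from each other by 1.02. The effect was 0.80 ± 0.21, a 1.74-fold ratio (unadjusted p = 0.000855, adjusted p = 0.366), and both of its probe sets were above 0 (0.66 and 0.94). Without oil array 1 it was 0.42, and without oil array 3 it was 1.10.

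Hoxd9 had -0.84, -0.86 and -0.10 in acetazolamide mesoderm at 3 h, against -0.33, 0.27 and 0 in oil mesoderm. The effect was -0.58 ± 0.18 (adjusted p = 0.388), with overlap through acetazolamide array 3. Without oil array 1 Hoxd9 passed the test, at -0.68 (limma adjusted p = 0.0347), and without oil array 2 it was -0.34. Hoxb6 had -0.48, -0.75 and -0.52 in acetazolamide arrays, against 0.29, -0.36 and 0 in oil arrays, all 3 below the oil arrays (-0.56 ± 0.19, adjusted p = 0.478). Hoxb5 was again higher, with 0.26, 0.26 and 0.60 in acetazolamide arrays, against -0.18, 0.16 and 0 in oil arrays (0.38 ± 0.15, adjusted p = 0.596). Hoxa2, the gene of the hindbrain and second branchial arch, was at 0.23 ± 0.11 and Hoxb3, of the hindbrain, at -0.22 ± 0.10. The lowest effect was once more that of Hoxa9, at -0.70 ± 0.47 (adjusted p = 0.804), with -1.35, -0.77 and -0.45 in acetazolamide arrays, against 0.62, -1.09 and 0 in oil arrays. The arrays of 7 of 31 Hox genes did not overlap, against 15.9% of all genes.

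Posterior genes were lower than anterior ones in this tissue and at this time. Of 12 posterior genes 11 were below 0, with a median of -0.17, while 10 of 19 anterior genes were below 0, with a median of -0.03, which was also the median of all genes. The median posterior gene was -0.29, -0.24 and -0.08 in the 3 acetazolamide arrays, against 0.14, -0.16 and 0 in the 3 oil arrays. Acetazolamide array 3 lay between the oil arrays, and posterior minus anterior medians ran from -0.21 to -0.09 when 1 array was left out. The 2 probe sets naming both Hoxd4 and Hoxd3 were at -1.04 ± 0.38 (adjusted p = 0.595 over all probe sets) and -0.47 ± 0.15 (adjusted p = 0.474). Limb mesoderm markers were also low: 2 of 13 were above 0, with a median effect of -0.14, and the median marker ran from -0.26 to -0.09 over acetazolamide arrays, against -0.08 to 0.08 over oil arrays. Of 11 endothelial markers 2 were above 0 (median -0.17). Their part in the Hox values was not tested.

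**Figure D2:**
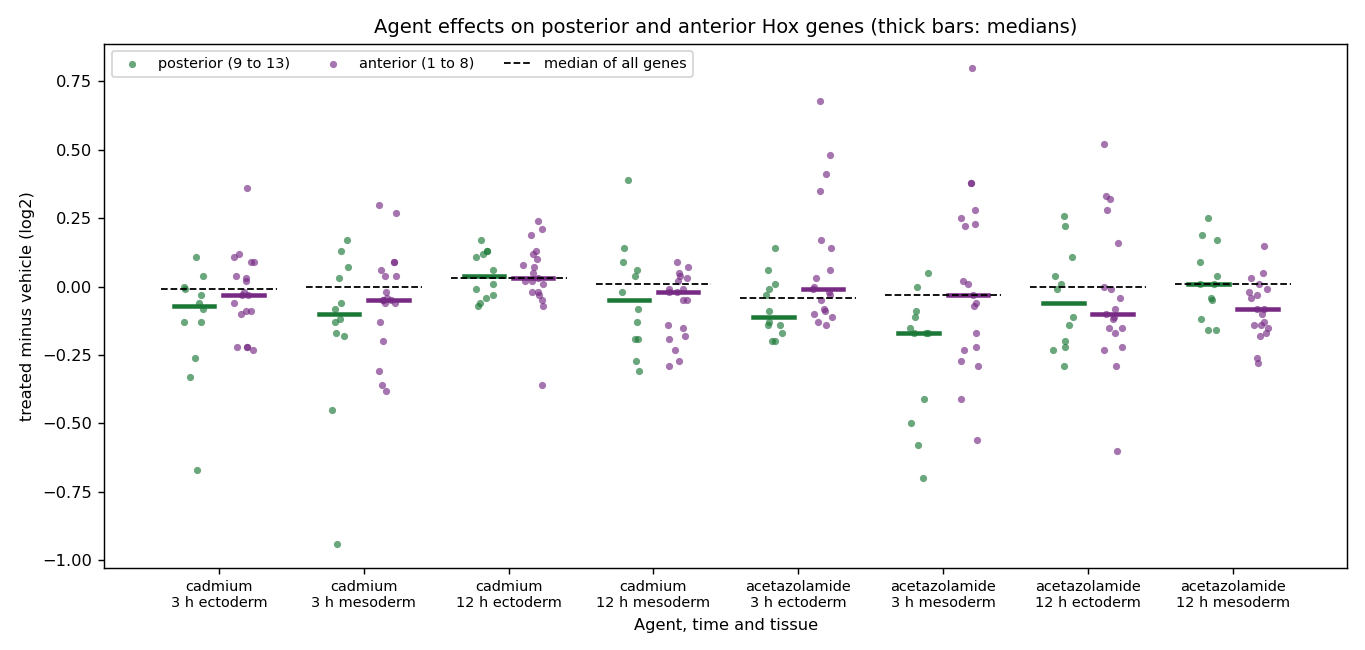
Agent effects (treated minus vehicle, log2 scale, vertical axis) of 12 posterior Hox genes (numbers 9 to 13, green, left) and 19 anterior Hox genes (1 to 8, purple, right) in the 8 comparisons (horizontal axis). Each point is 1 gene, thick bars are medians of the group and dashed lines medians of all genes. In acetazolamide mesoderm at 3 h the posterior median is -0.17 and the anterior median -0.03.

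At 12 h after acetazolamide, Hoxc6, a gene expressed at the base of the forelimb, was lowest in ectoderm. It had -0.81, -0.81 and -0.44 in acetazolamide arrays, against 0.48, -0.72 and 0 in oil arrays, so acetazolamide array 3 lay above oil array 2. The effect was -0.60 ± 0.23 (adjusted p = 0.605). It passed the test without oil array 2, at -0.92 (limma adjusted p = 0.0244), and was -0.24 without oil array 1. Hoxb13, which acts in the tail end of the body, had -0.40, -0.14 and -0.34 in acetazolamide arrays, against -0.11, 0.10 and 0 in oil arrays (-0.29 ± 0.16, adjusted p = 0.648), with no overlap. Hoxc8 was highest, at 0.52 ± 0.34 (adjusted p = 0.683), with 0.80, 0.78 and -0.05 in acetazolamide arrays and -0.23, 0.20 and 0 in oil arrays, and Hoxc4 was at 0.32 ± 0.17. The arrays of 3 of 31 Hox genes did not overlap, against 16.8% of all genes. Of 11 somite markers 0 were above 0 in this comparison (median -0.17), and their part was not tested.

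Mesoderm at 12 h after acetazolamide had the smallest share of all genes at an unadjusted p under 0.05, and Hox effects ran from -0.28 (Hoxa5) to 0.25 (Hoxd11). Hoxd12, which patterns the hand, had 0.15, 0.29 and 0.14 in acetazolamide arrays, against 0.11, -0.12 and 0 in oil arrays (0.19 ± 0.12, adjusted p = 1). Hoxb5 was at -0.26 ± 0.16 and Hoxb9 at -0.12 ± 0.08. Leaving out 1 array gave -0.43 (oil array 3) to -0.12 (oil array 2) for Hoxb5 and -0.22 (oil array 3) to -0.04 (oil array 1) for Hoxb9. Arrays of 2 of 31 Hox genes (Hoxc8, Hoxd12) did not overlap, against 5.91% of all genes.

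**Figure D3:**
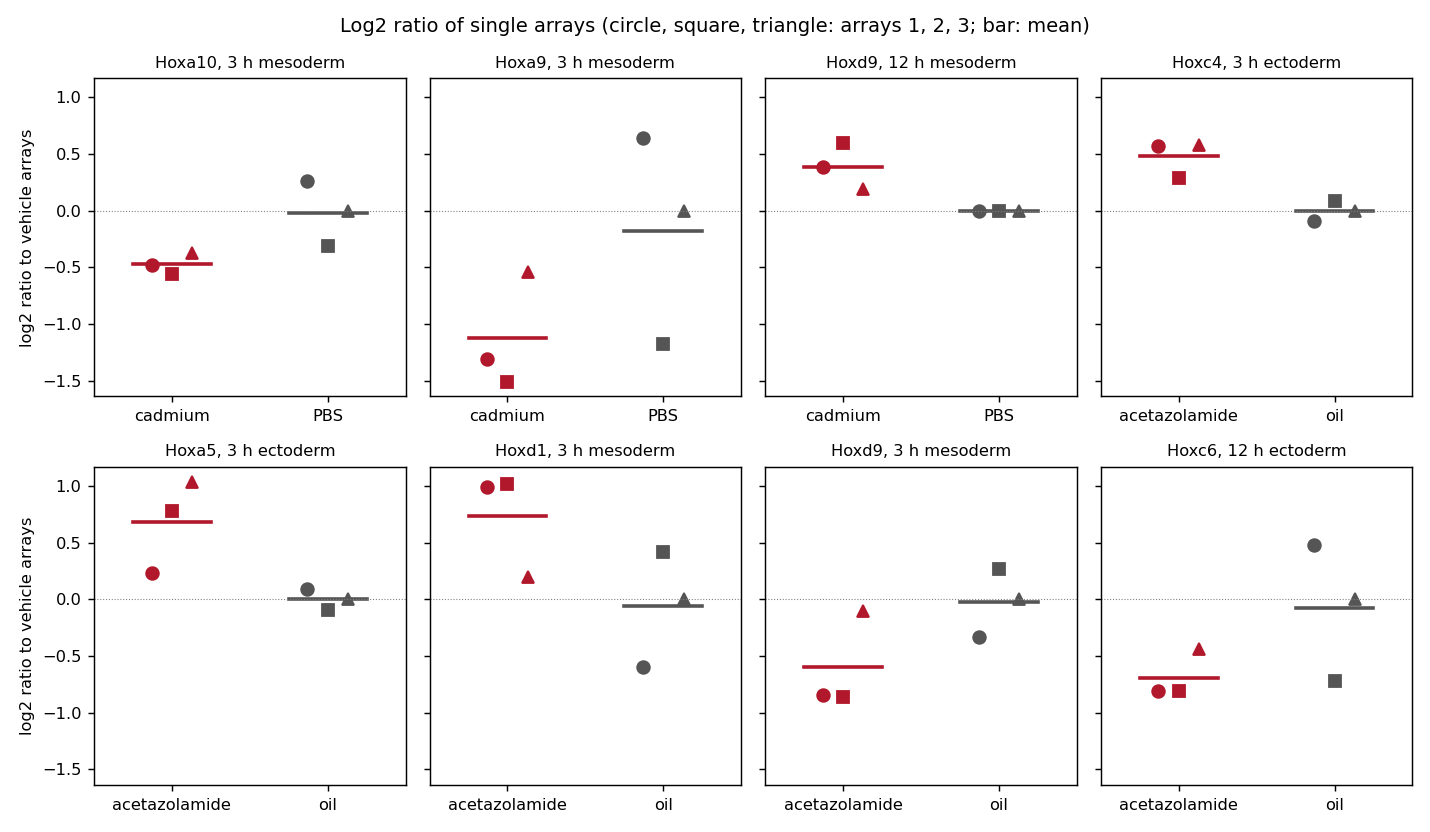
Log2 ratio of each array to its vehicle arrays (vertical axis) for 8 gene and comparison pairs, with treated arrays in red on the left and vehicle arrays in grey on the right of each panel. Circles, squares and triangles are arrays 1, 2 and 3, bars are means, and vehicle array 3 is 0 by construction. Hoxa5 and Hoxc4 in ectoderm, Hoxa10 in mesoderm and Hoxd9 at 12 h do not overlap, while Hoxa9 spans 0.64 to -1.18 within the PBS arrays.

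Hoxb9 was the 1 Hox gene whose effect had the same sign in all 8 comparisons, where 1.36% of all genes had. It is a posterior gene of the trunk, known to be expressed with other number 9 genes at the rear of the forelimb field. Its effects ran from -0.15 in acetazolamide mesoderm at 3 h to -0.01 in acetazolamide ectoderm at 12 h. In mesoderm at 3 h it had -0.16, -0.10 and -0.12 in cadmium arrays, against 0.06, -0.07 and 0 in PBS arrays, and -0.18, -0.21 and -0.08 in acetazolamide arrays, against -0.01, 0.01 and 0 in oil arrays. Treated arrays lay below all vehicle arrays in these comparisons, in cadmium ectoderm at 3 h and in cadmium mesoderm at 12 h, 4 of 8 in all. Of all genes, 4.18% did so in cadmium mesoderm at 3 h and 6.59% in acetazolamide mesoderm at 3 h. The shares were 3.82% in cadmium ectoderm at 3 h and 9.51% in cadmium mesoderm at 12 h. In the last the margin was narrow, with -0.04, -0.04 and -0.15 against -0.01, 0.01 and 0. The share of all genes that did so in 4 comparisons was not counted. Averaged over both agents and both times in mesoderm, Hoxb9 was at -0.12 ± 0.03 (limma adjusted p = 0.248), the smallest p of a Hox gene among the means over agents and times, at 0.0121% of all genes called. After each array was centred on its median, Hoxb9 was above 0 in acetazolamide ectoderm at 3 h (0.02) and at 12 h (0.01), so the common sign did not hold under that scaling. Nor did it hold in ectoderm at 12 h without cadmium array 1 (0.01) or without oil array 3 (0.09). Hoxd8 (-0.30 ± 0.10, adjusted p = 0.387), Hoxb6 (-0.25 ± 0.08, adjusted p = 0.420) and Hoxa9 (-0.52 ± 0.21, adjusted p = 0.634) were also below 0 in the mesoderm mean. These were the 4 of 31 Hox genes with an unadjusted p under 0.05 there, against 5.91% of all genes. In the ectoderm mean 1 of 31 was, Hoxc9 at 0.17 ± 0.08, against 3.37% of all genes.

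The agents were then compared at matched tissue and time. They differ in compound, dose and vehicle, so a difference cannot be assigned to the compound alone. Hoxd1 in mesoderm at 3 h showed the widest separation, with cadmium at -0.38 and acetazolamide at 0.80. The difference, cadmium minus acetazolamide, was -1.18 ± 0.27 (95% interval -1.74 to -0.63, unadjusted p = 0.000154, limma adjusted p = 0.423). At an unadjusted p under 0.05, 3 of 31 Hox genes differed in this contrast (Hoxd1, Hoxd9 and Hoxb3), against 2.81% of all genes. Hoxd9 differed by 0.65 ± 0.23 in mesoderm at 3 h and by 0.55 ± 0.23 at 12 h (adjusted p = 0.999 and 1), and at 12 h it was the 1 Hox gene of 31 at an unadjusted p under 0.05, against 3.94% of all genes.

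Hoxb3 in mesoderm at 3 h had 0.10, 0.01 and 0.15 in cadmium arrays, against 0.00, 0.00 and 0 in PBS arrays. That effect was small, at 0.09 ± 0.08 (limma unadjusted p = 0.283). After acetazolamide Hoxb3 had -0.21, -0.19 and -0.25, against 0.02, -0.02 and 0 in oil arrays (-0.22 ± 0.10, limma unadjusted p = 0.0399). Its arrays thus lay apart from vehicle on opposite sides, but the share of all genes that did so was not counted. The difference between agents was 0.30 ± 0.13 (adjusted p = 0.999). In ectoderm at 3 h, Hoxa5 differed by -0.90 ± 0.28 and Hoxc4 by -0.58 ± 0.19 (adjusted p = 0.642 each), where 3 of 31 Hox genes (with Hoxc6) had an unadjusted p under 0.05, against 6.28% of all genes. Hoxc4 at 12 h in ectoderm differed by -0.68 ± 0.27 (adjusted p = 0.342). There 2 of 31 Hox genes (Hoxc4, Hoxc6) had an unadjusted p under 0.05, against 11.7% of all genes.

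In mesoderm at 3 h, 3 members had an unadjusted p under 0.05 after both agents. Hoxb5 was higher after each (0.27 after cadmium and 0.38 after acetazolamide), Hoxb6 was lower after each (-0.31 and -0.56), and Hoxd1 was on opposite sides. The share of all genes that passed after both agents was not counted, so no excess is read from these 3. The agents have different vehicles and share no arrays.

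Between times, the effect on Hoxd1 in acetazolamide mesoderm was 0.94 lower at 12 h than at 3 h (-0.94 ± 0.31, adjusted p = 0.999), and that on Hoxb5 differed by -0.64 ± 0.22 (adjusted p = 0.999). At an unadjusted p under 0.05, 3 of 31 Hox genes differed between times there, against 2.31% of all genes. Hoxb5 after cadmium in mesoderm differed by -0.42 ± 0.16 (adjusted p = 0.394). There 3 of 31 Hox genes (Hoxb5, Hoxc5, Hoxc9) had an unadjusted p under 0.05, against 8.63% of all genes. In acetazolamide ectoderm, Hoxc6 differed by -0.95 ± 0.30 (12 h minus 3 h, adjusted p = 1) and was the 1 Hox gene of 31 at an unadjusted p under 0.05, against 3.17% of all genes. Its effects there were 0.35 at 3 h and -0.60 at 12 h. In cadmium ectoderm 0 of 31 differed between times at that limit, against 3.49% of all genes. Ectoderm minus mesoderm, Hoxc6 differed by 0.62 ± 0.27 at 3 h and by -0.76 ± 0.30 at 12 h after acetazolamide (adjusted p = 1 and 0.967). With it, Hoxb6 at 3 h (0.56 ± 0.26) and Hoxd12 at 12 h (-0.43 ± 0.18) had an unadjusted p under 0.05, which made 2 of 31 at each time, against 1.70% of all genes at 3 h and 2.79% at 12 h. After cadmium 0 of 31 differed between tissues at either time, against 0.824% of all genes at 3 h and 1.38% at 12 h. Ectoderm and mesoderm were parted from limb buds of the same treatment, and whether both tissues of an array number came from the same pool is not stated. The contrasts between tissues treat them as independent. None of these differences passed the test, and a missed threshold does not show that effects were equal.

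Some Hox genes differed between vehicle arrays 1 and 2 by more in size than the largest agent effect of a Hox gene (-0.94). A difference of 2 single arrays varies more than a difference of means of 3 arrays, so these are unlike measures. Other Hox genes differed little, as Hoxd9 did in PBS mesoderm at 12 h (0 on the log2 scale). Array 1 exceeded array 2 for Hoxa9 by 2.35 on the log2 scale in PBS ectoderm at 3 h, by 1.82 in PBS mesoderm at 3 h and by 1.71 in oil mesoderm at 3 h. By size these differences ranked 4, 2 and 42 among 8252 genes. In the other 5 vehicle groups Hoxa9 differed by -0.08 to 0.42. Hoxc8 went the other way at 3 h, with array 1 below array 2 by -1.05 in PBS ectoderm, -0.89 in PBS mesoderm, -0.65 in oil ectoderm and -1.13 in oil mesoderm. Hoxa10 followed Hoxa9 in 3 of these groups (0.65, 0.57 and 0.64), and Hoxd10 was above 0.5 in 4 of 8 vehicle groups.

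The share of Hox genes that differed between vehicle arrays was above that of all genes in mesoderm at both times and in PBS ectoderm at 3 h. In mesoderm at 12 h the share with a difference over 0.5 was 12.9% against 7.7% in oil. It was barely above in PBS, 6.45% against 6.2%. A difference over 0.5 in size was found for 7 of 31 Hox genes (22.6%) in PBS mesoderm at 3 h, against 8.35% of all genes, for 7 (22.6%) in PBS ectoderm at 3 h, against 11.6%, and for 9 of 31 (29%) in oil mesoderm at 3 h, against 13.4% of all genes. For posterior genes the median signed difference was 0.40 in PBS mesoderm and 0.30 in oil mesoderm at 3 h, against 0.04 and 0.09 over all genes. In ectoderm at 12 h the share of Hox genes was below that of all genes, 16.1% against 23.6% in PBS and 19.4% against 22.6% in oil, and so it was in oil ectoderm at 3 h, 3.23% against 7.11%. Hoxb9, the gene with the common sign, had differences of -0.08 to 0.18 over the 8 groups. The 3 comparisons with the lowest Hoxa9 effects were those whose vehicle arrays differed most in Hoxa9. Both values are drawn from the same vehicle arrays, so they are not independent, and a link between them was not tested. How the RNA of arrays 1 and 2 differed in source is not given in the sources used here.

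**Figure D4:**
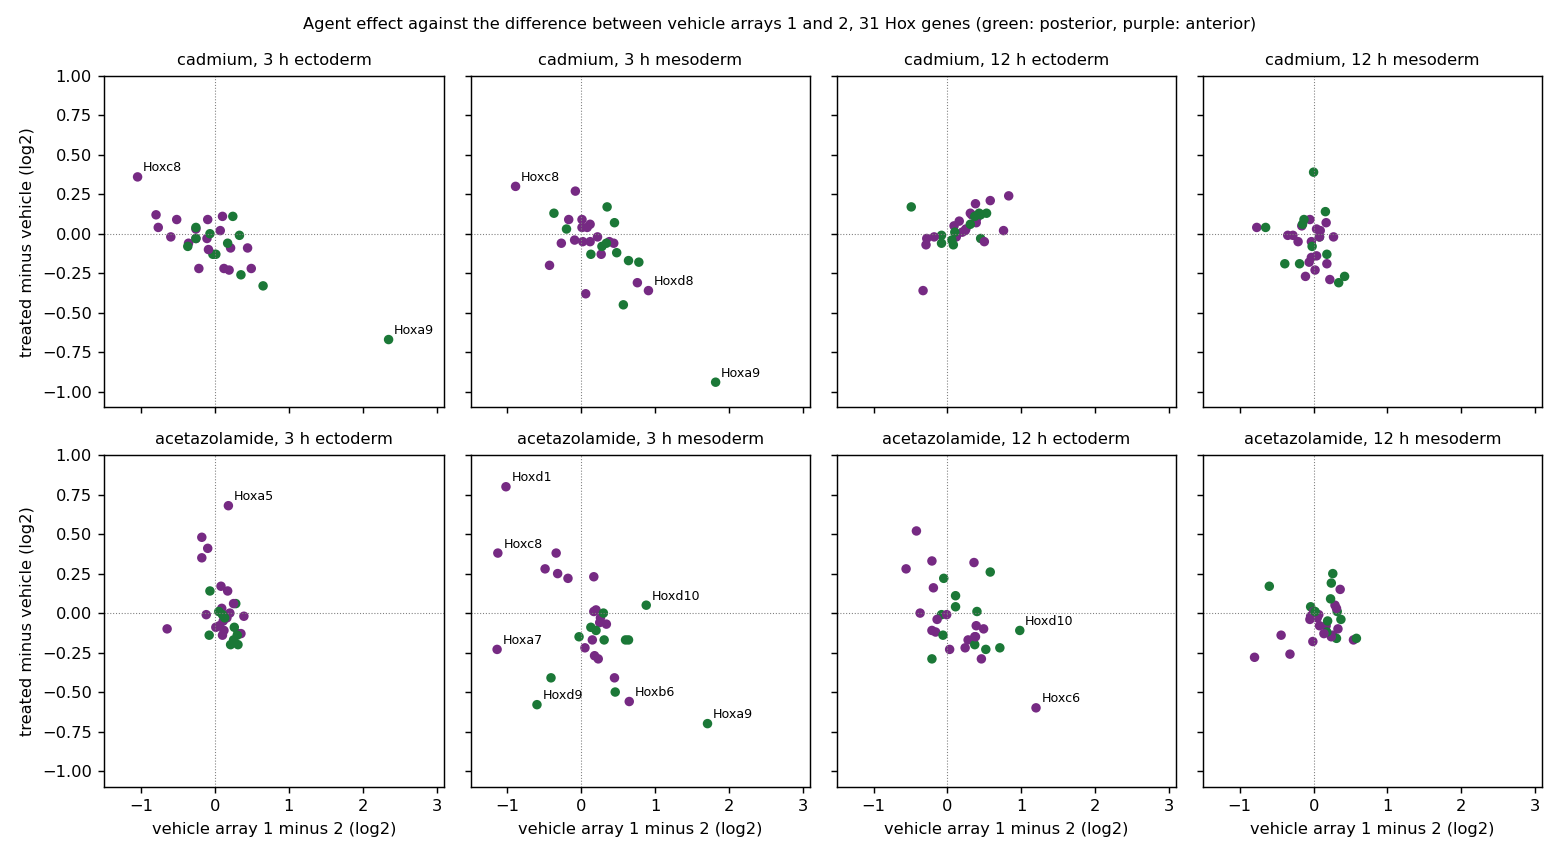
Agent effect (treated minus vehicle, log2 scale, vertical axis) against the difference between vehicle arrays 1 and 2 (log2 scale, horizontal axis) for 31 Hox genes in each of 8 comparisons, with posterior genes in green and anterior genes in purple. Both axes use the same vehicle arrays, so no correlation is given. Hoxa9 lies at 2.35 in PBS ectoderm, 1.82 in PBS mesoderm and 1.71 in oil mesoderm at 3 h.

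Genes that act with the Hox clusters were read from fixed lists. None of 8 measured genes of the homeobox class that holds the Pbx and Meis cofactors (Meis, Pbx, Pknox and Tgif genes) was called in any of the 8 comparisons. The smallest p was that of Meis2, which marks the base of the limb, at 0.65 ± 0.28 in acetazolamide ectoderm at 3 h (adjusted p = 0.693). Of 15 Polycomb genes, 1 passed in 1 comparison. Cbx6, a chromatin-binding subunit, fell by 0.50 on the log2 scale in cadmium mesoderm at 12 h (SE 0.13, adjusted p = 0.0327), where 2.28% of all genes were called. Of 7 Trithorax genes 0 were called, with Kmt2a, the Mll methyltransferase that keeps Hox genes on, at -0.32 ± 0.11 in cadmium mesoderm at 12 h (adjusted p = 0.150).

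Of 18 genes that feed into Hox transcription 0 were called. The smallest unadjusted p was that of Rxrb, a partner of the retinoic acid receptors, at -0.50 ± 0.14 in acetazolamide ectoderm at 3 h (adjusted p = 0.315). Ctcf, which insulates domains within the clusters and was named after its values were seen, had the smallest adjusted p, at -0.65 ± 0.18 in cadmium mesoderm at 12 h (adjusted p = 0.056). Of 23 limb genes downstream of or acting with Hox proteins 0 were called. Fgf8, the growth factor of the apical ridge, was at -0.66 ± 0.23 in cadmium ectoderm at 3 h (adjusted p = 0.999). Of 22 other homeobox genes of the limb bud 0 were called. Dlx1, a Distal-less gene, had the smallest p, at -0.69 ± 0.21 in cadmium ectoderm at 12 h (adjusted p = 0.615).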

How the data were processed

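Arrays of 16 groups were compared as the labels name them. The authors deposited a linear ratio per probe set, with the array software and normalization not given in the sources used here. Ratios were converted to log2, which the deposited values were not. Probe sets naming 1 gene (10855 of 12488; 396 named several and 1237 none) were averaged to 8252 genes. The model was fitted to 48 arrays with limma 3.58.1 (R 4.3.3), with 8 agent effects, 16 denominator blocks, 24 residual degrees of freedom, 1 precision weight per comparison and eBayes without a trend. It was checked on simulated data.

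Members and lists were chosen with earlier results of these data known. Genes with full values were those called and those with 1 sign in 8 comparisons. The 3 smallest p and the highest and lowest effect of each comparison were also taken. Hoxb5 and Hoxb3 in mesoderm at 3 h lay outside this rule. Hoxb3 was shown because its arrays lay apart from vehicle on opposite sides after the 2 agents. Listed genes were named if called, otherwise the smallest p of a list over the 8 comparisons. The lists were cofactors with genes of their class, Polycomb, Trithorax, inputs, limb genes, other homeobox genes, and 6 marker lists. The markers were of ectoderm, mesoderm, neural tube, somite, endothelium and red cells. Without levels, no dim probe set was left out. The number of arrays limits the precision. Array 1 minus 2 correlated between treated and vehicle arrays over all genes at 0.65 in cadmium mesoderm at 12 h, 0.55 in acetazolamide mesoderm and 0.22 in acetazolamide ectoderm at 3 h, and at -0.20 to 0.09 in the other 5, so the numbers were not taken to pair the samples in general. Alternatives were no weights, no denominator block, 6 arrays alone, a replicate block, centring, single probe sets, robust eBayes and leaving out each array.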

Additional observations from a re-analysis of the deposited data

How the results depend on the processing

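Under each of the 7 alternatives that kept every array the count of Hox genes called was 0 in all 8 comparisons, and in the contrasts between tissues, times and agents under the 6 that could give them (all but the arrays of a comparison alone). Counts at an unadjusted p under 0.05 moved. Without weights they were 2 in cadmium mesoderm at 3 h, 1 in cadmium ectoderm at 12 h, 1 in cadmium mesoderm at 12 h and 3 in acetazolamide ectoderm at 12 h. With each array centred on its median they were 1 in cadmium ectoderm and 4 in acetazolamide ectoderm at 3 h. With the arrays of a comparison alone they were 4 in cadmium mesoderm at 3 h and 2 in acetazolamide ectoderm at 12 h. Centring turned Hoxb9 to 0.02 and 0.01 in acetazolamide ectoderm at 3 h and 12 h. The cause was not tested. Arrays of 1 number moved together in cadmium mesoderm at 12 h (r = 0.65) and in acetazolamide mesoderm at 3 h (r = 0.55), across genes, but not in all comparisons. With the replicate block the count in cadmium mesoderm at 3 h was 6, and Hoxd9 in cadmium mesoderm at 12 h was at 0.39 (limma adjusted p = 0.0547). The block changed no call.

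Leaving out 1 array at a time gave 0 to 1 Hox genes called in acetazolamide mesoderm at 3 h and in acetazolamide ectoderm at 12 h and 0 elsewhere. Counts at an unadjusted p under 0.05 ran from 0 to 6 in cadmium ectoderm and 1 to 10 in cadmium mesoderm at 3 h, 0 to 2 and 1 to 7 at 12 h, 2 to 4 in acetazolamide ectoderm and 4 to 9 in acetazolamide mesoderm at 3 h, and 0 to 7 and 0 to 2 at 12 h. Hox medians ran from -0.08 to 0.02, -0.08 to -0.01, -0.02 to 0.12 and -0.09 to -0.02 after cadmium and -0.08 to 0.06, -0.15 to -0.01, -0.17 to -0.01 and -0.10 to 0 after acetazolamide, in the order ectoderm and mesoderm at 3 h, then at 12 h. Posterior minus anterior medians ran from -0.13 to 0.01, -0.13 to -0.02, -0.05 to 0.01 and -0.03 to 0.07 after cadmium and -0.14 to -0.06, -0.21 to -0.09, -0.02 to 0.10 and 0.01 to 0.14 after acetazolamide. Hoxa9 in cadmium ectoderm at 3 h ran from -1.25 to 0.10, and Hoxb9 at 12 h from -0.15 to 0.01 in cadmium ectoderm and from -0.07 to 0.09 in acetazolamide ectoderm. Leaving out array 3 of a vehicle also drops the treated array 3 set against it.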
